A study of Mus musculus with 2 samples.

Results

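Spots of mouse liver rich in RNA of MHC class II were examined by spatial transcriptomics (ST). Each spot was scored by the summed unique molecular identifiers (UMIs) of 4 genes, Cd74, H2-Aa, H2-Ab1 and H2-Eb1, divided by all UMIs of the spot and expressed as CPM, the UMIs of a gene or list per 1000000 UMIs. The 10% of spots with the highest score in each library were chosen by this score as members. There were 468 members among 4680 kept spots, of which 214 of 2140 came from the AEG-1ΔMAC library and 254 of 2540 from the AEG-1fl/fl library. A spot covers several neighbouring cells, often of more than 1 type, so the members are regions and not cells.

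AEG-1ΔMAC mice lack AEG-1, the product of Mtdh, in myeloid cells, because Cre recombinase is made from the Lyz2 locus and deletes the floxed gene. AEG-1fl/fl mice carry the floxed gene, and their label names no Cre. Lyz2 is active in macrophages, monocytes and neutrophils, so the deletion in this model is not limited to Kupffer cells. Per the labels both livers came from mice that were 27 weeks old and had received HF/HSD, a high-fat and high-sugar diet, from the age of 7 weeks, whereas the study describes this assay for littermates on control diet. The diet is therefore not settled, but both libraries carry the same diet label. There was 1 section of 1 mouse per genotype. The spread between mice is unknown, so no genotype difference was tested. Genotype, mouse, section and capture area cannot be told apart.

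MHC class II molecules are pairs of an alpha and a beta chain that show peptides from engulfed proteins to CD4 T cells. Cd74, the invariant chain, guides the new pair to the endosome and blocks its groove. There, proteases such as cathepsin S trim Cd74, and H2-DM exchanges the remaining fragment for peptide. Dendritic cells, B cells and activated macrophages are the main carriers of MHC class II, and Ciita is the coactivator that turns the genes on. In liver, Kupffer cells line the sinusoids, while dendritic cells and lymphocytes gather in portal tracts around bile ducts and vessels.

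Apart from Cd74 and Ciita, most genes of this pathway lie close together on mouse chromosome 17, and they share a short promoter module, part of which is the Y box, an inverted CCAAT element bound by NF-Y. The stretches from 120 bases before the start site up to the base before it are shown for H2-Aa and H2-Eb1, which are score genes, and for H2-DMb1 and H2-DMb2, which are not. The sequences are from RefSeq for GRCm38.p6 and run 5′ to 3′ on the strand of the gene. Capitals mark ATTGG, the core of the Y box, and TGATGC, a word chosen after these sequences were read. The windows lie at chr17:34287824-34287943 (minus strand), chr17:34305747-34305866 (plus strand), chr17:34153071-34153190 (plus strand) and chr17:34145129-34145248 (plus strand), in that order.
H2-Aa: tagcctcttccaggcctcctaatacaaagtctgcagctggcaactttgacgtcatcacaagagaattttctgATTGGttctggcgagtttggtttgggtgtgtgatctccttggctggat
H2-Eb1: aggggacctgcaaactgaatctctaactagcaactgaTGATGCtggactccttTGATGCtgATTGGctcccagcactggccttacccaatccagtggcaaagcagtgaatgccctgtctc
H2-DMb1: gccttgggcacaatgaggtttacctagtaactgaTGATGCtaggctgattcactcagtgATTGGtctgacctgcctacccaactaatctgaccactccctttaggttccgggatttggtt
H2-DMb2: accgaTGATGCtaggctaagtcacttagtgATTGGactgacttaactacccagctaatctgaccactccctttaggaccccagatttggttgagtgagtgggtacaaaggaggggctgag

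ATTGG began at position -48 in H2-Aa, -59 in H2-Eb1, -61 in H2-DMb1 and -90 in H2-DMb2, counted from the start site. The same letters were present in the windows of H2-Oa and H2-Ob, the chains of the H2-O protein that restrains H2-DM, at -43 and -57. Neither of the 2 windows listed for H2-DMa held ATTGG or TGATGC. Of 32851 RefSeq promoter windows of this length, 11.9% held ATTGG on the strand of the gene and 21.3% on either strand. TGATGC was held by 2.28% and 4.63%, and both words on the strand of the gene by 0.262%. TGATGC was absent from the windows of H2-Aa and H2-Oa. No other word was searched, the words do not overlap each other, and a match describes letters only.

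The 2 libraries were of similar depth. Kept spots held a median of 20929.5 UMIs in AEG-1ΔMAC versus 18285 UMIs in AEG-1fl/fl, and members held 4417939 and 4755430 UMIs in all. Members had slightly fewer UMIs than the remaining spots, with medians of 19942 against 21023 in AEG-1ΔMAC and 16283 against 18603 in AEG-1fl/fl. In all, 1776 barcodes were kept in both libraries. A barcode names a position on the array and not a cell, and 19 of these positions were members in both. Mtdh was represented in members by 325 UMIs (73.6 CPM) in AEG-1ΔMAC and 296 UMIs (62.2 CPM) in AEG-1fl/fl. Most RNA of a spot comes from hepatocytes, which keep the gene, so this value does not check the deletion. Lyz2 had 6 and 8 UMIs in members.

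The score genes are Cd74 (chr18:60803848-60812652, plus strand), H2-Aa (chr17:34282744-34287823, minus strand), H2-Ab1 (chr17:34257689-34269419, plus strand) and H2-Eb1 (chr17:34305867-34316674, plus strand), in GRCm38. The score chose the members and is given as a description only. In AEG-1ΔMAC the members ran from 1246 to 15387 CPM with a median of 1582, and the remaining spots had a median of 619. In AEG-1fl/fl they ran from 667 to 8121 with a median of 856, and the remaining spots had a median of 297. The spots next in rank, just outside, were at 1244 and 666. Nothing in the distribution set the members apart at this limit, as the plot of ranked scores shows. A steep rise was seen only among the foremost spots: 15 members in AEG-1ΔMAC versus 6 in AEG-1fl/fl exceeded 5000 CPM. The median member carried 34.5 score UMIs in AEG-1ΔMAC versus 15 in AEG-1fl/fl. Members held 28.0% and 28.1% of all score UMIs.

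**Figure D1:**
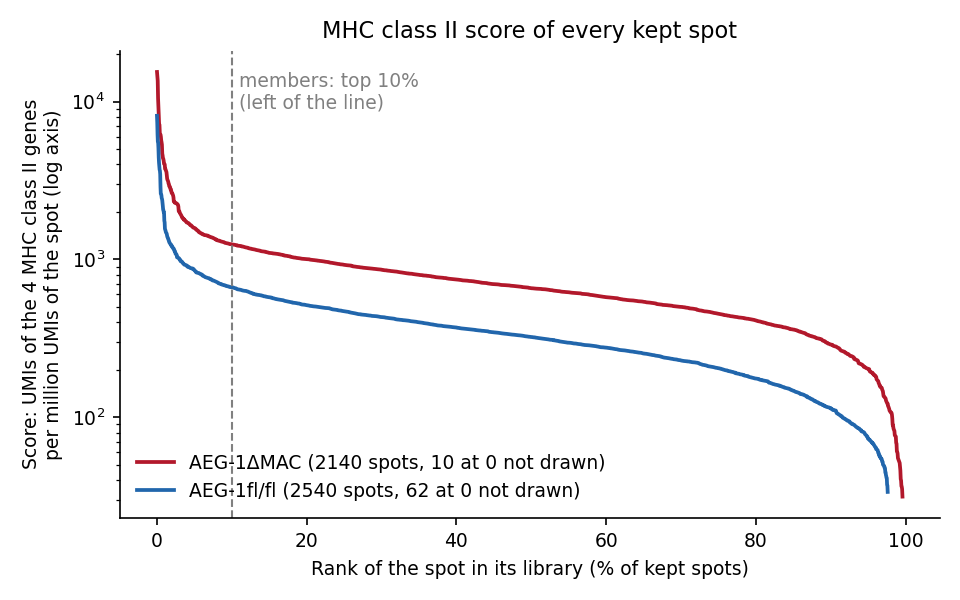
Score of every kept spot (CPM, log axis) against its rank in its library (% of kept spots), with members left of the dashed line. Both curves are steep only among the foremost spots and pass the line at 1246 in AEG-1ΔMAC versus 667 in AEG-1fl/fl without a step, and the AEG-1ΔMAC curve lies higher throughout.

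Score RNA was more abundant in AEG-1ΔMAC over the whole section and not just in the members. Cd74 had 472 CPM in AEG-1ΔMAC versus 248 CPM in AEG-1fl/fl over all kept spots. H2-Aa, the alpha chain of I-A, had 141 and 67.1 CPM, and H2-Ab1, its beta chain, had 107 and 45.3 CPM. H2-Eb1, the beta chain of I-E, had 67.9 and 27.6 CPM. The log2 ratio was 0.93, 1.07, 1.24 and 1.30 in the same order. For the summed genes it was 1.02 (95% interval 1.0 to 1.05) over all kept spots and 1.03 (1.0 to 1.06) in the spots outside the members. These intervals, like those of ratios below, cover counting error only. Because members were taken per library, the 2 sets do not hold spots of equal score. With 1 limit for both libraries, at 1025 CPM, 396 spots (18.5%, exact binomial 95% interval 16.9 to 20.2) of AEG-1ΔMAC and 72 spots (2.83%, 2.22 to 3.56) of AEG-1fl/fl would have been members. Intervals for shares of spots, here and below, take spots as independent, which neighbours in 1 section need not be. They do not measure the spread between mice.

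To measure each score gene in spots it had not chosen, members were also taken by the other 3 genes. Cd74 then had 1176 CPM in members and 396 CPM elsewhere in AEG-1ΔMAC, a ratio of 2.97, and 578 against 214 CPM in AEG-1fl/fl, a ratio of 2.70. The ratios in AEG-1ΔMAC and AEG-1fl/fl were 3.46 and 3.55 for H2-Aa, 3.40 and 3.75 for H2-Ab1, and 3.76 and 3.98 for H2-Eb1. Each of the 4 RNAs was thus higher in the spots chosen by the other 3, in both libraries.

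The genes most increased in members were those of portal tracts, beside genes of antigen-presenting cells. All genes with at least 5 CPM in each library were compared between members and the remaining spots of the same library, without the score genes. Of 8437 genes, 297 (3.52%) were at least 1.5-fold higher in members in both libraries and 3 (0.0356%) were at least 1.5-fold lower. This limit is used below, and 3.52% is the share of all genes to set beside counts of listed genes above it. Where 2 values stand together with no library named, the AEG-1ΔMAC value is given before the AEG-1fl/fl value. Since members were chosen within the same contrast, these are descriptions. For all genes the median log2 ratio was 0.10 in AEG-1ΔMAC versus 0.05 in AEG-1fl/fl. The log2 ratios of AEG-1ΔMAC and AEG-1fl/fl were correlated across genes (Pearson r 0.648), and genes are not independent of each other. In bulk regions such as spots, more cells of a type and more RNA per cell cannot be told apart.

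By the smaller of its 2 ratios, matrix Gla protein (Mgp), an inhibitor of calcification made by fibroblasts and smooth muscle, was foremost. It had 40.1 CPM in members and 4.14 CPM elsewhere in AEG-1ΔMAC (log2 ratio 3.27, 95% interval 2.96 to 3.59) and 36.8 against 2.77 CPM in AEG-1fl/fl (3.73, 3.40 to 4.08). The actin-severing protein gelsolin (Gsn) had 81.0 against 9.97 CPM and 28.8 against 4.06 CPM. Osteopontin (Spp1), which bile duct cells secrete, had 294 against 42.6 CPM and 258 against 35.9 CPM, with log2 ratios of 2.79 and 2.85. Dermatopontin (Dpt), smooth muscle actin (Acta2), elastin (Eln) and the collagen chain Col1a1 are genes of fibroblasts and vessel walls. Their log2 ratios in AEG-1ΔMAC and AEG-1fl/fl were 3.20 and 2.60 for Dpt, 3.33 and 2.51 for Acta2, 3.02 and 2.49 for Eln, and 2.88 and 1.95 for Col1a1. S100a6, a calcium-binding protein, was at 2.81 and 2.31, and Gpx3, a secreted glutathione peroxidase, at 2.89 and 2.13.

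Of the 12 genes named by the rule, 2 are known from leukocytes. Naaa, a lysosomal amidase, had 48.2 against 8.99 CPM in AEG-1ΔMAC (log2 ratio 2.42) and 27.1 against 6.23 CPM in AEG-1fl/fl (2.12). Lsp1, a leukocyte actin-binding protein, had 31.2 against 6.19 CPM (2.34) and 17.9 against 4.39 CPM (2.03). The flavin monooxygenase Fmo2 was at 2.39 and 1.95. Naaa was seen in 42.5% of AEG-1ΔMAC members and 16.3% of the remaining spots, and in 28.0% and 11.5% of those of AEG-1fl/fl. After thinning every spot to 10000 UMIs, which left out 5 and 14 members and 21 and 92 remaining spots, the shares were 28.2% against 9.03% and 18.3% against 5.93%.

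The 3 genes below the limit in both libraries were the vasopressin receptor Avpr1a, the transcriptional repressor Klf12 and Nxpe2. Avpr1a had 6.11 CPM in members and 10.1 CPM elsewhere in AEG-1ΔMAC, and 3.79 against 6.65 CPM in AEG-1fl/fl, on 27 and 18 member UMIs. The log2 ratios were -0.73 and -0.81 for Avpr1a, -0.64 and -0.70 for Klf12, and -0.60 and -0.91 for Nxpe2. The next genes, which did not reach the limit, were D630039A03Rik (-0.52 and -0.54), the acyl-CoA thioesterase Acot1 (-0.51 and -0.54), Dcaf10 (-0.50 and -0.51), Arhgef37 (-0.53 and -0.49) and Adam11 (-0.45 and -0.48). The intervals of Arhgef37 and Adam11 included 0 in both libraries.

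**Figure D2:**
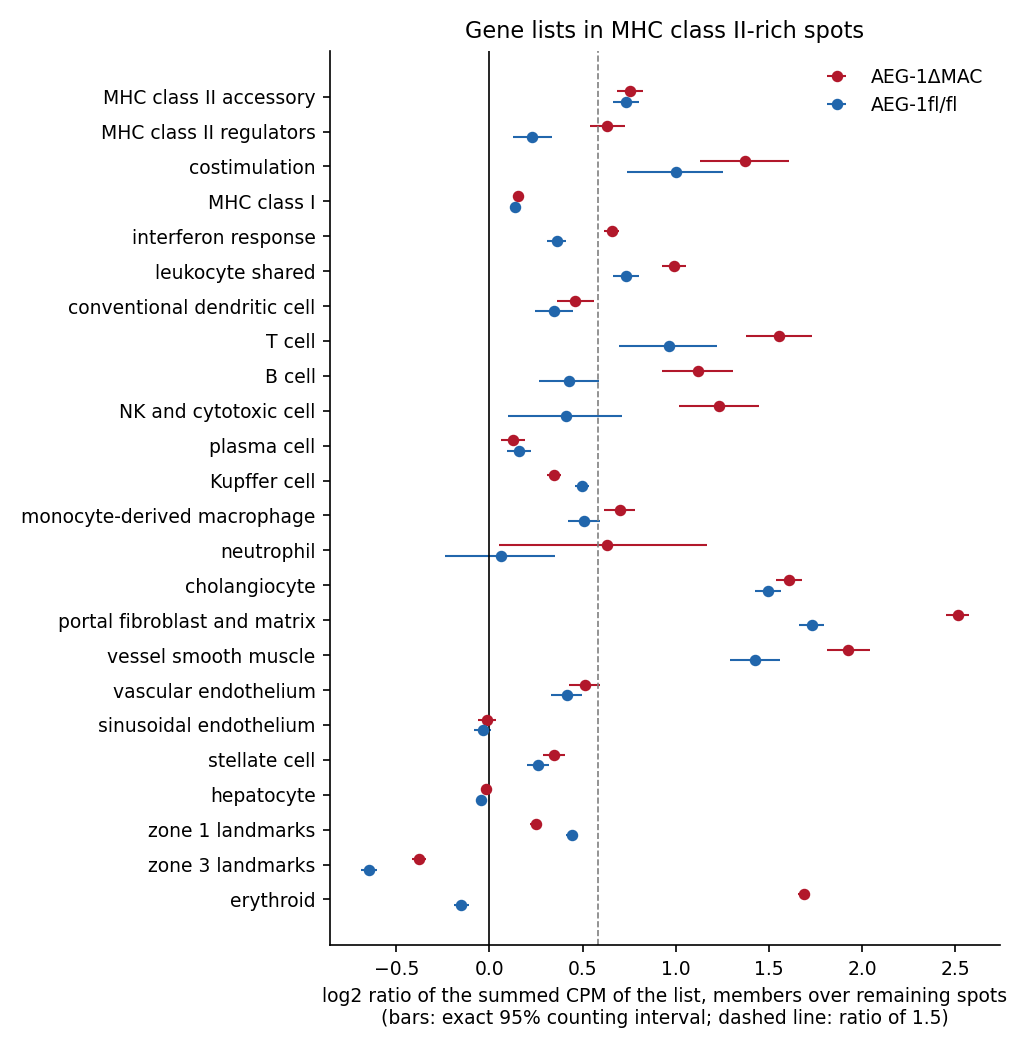
Log2 ratio of the summed CPM of each gene list in members over the remaining spots of the same library, with exact 95% intervals for counting error. Lists of matrix, smooth muscle and cholangiocyte genes lie among the farthest right in both libraries, hepatocyte and sinusoidal endothelium lists lie near 0, and the erythroid list is at 1.69 in AEG-1ΔMAC versus -0.15 in AEG-1fl/fl.

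The partners of the score genes in the MHC class II pathway were higher in members in both libraries. H2-DMa, the alpha chain of the peptide exchanger H2-DM, had 51.2 CPM in members and 17.1 CPM elsewhere in AEG-1ΔMAC (log2 ratio 1.58), and 26.3 against 10.4 CPM in AEG-1fl/fl (1.33). H2-DMb1, its beta chain, had 27.4 against 8.75 CPM (1.65) and 16.0 against 5.33 CPM (1.58). H2-DMb1 and H2-DMb2, whose promoters are shown above, are near-identical copies, and the division of counts between them is uncertain. March1, a ubiquitin ligase that removes MHC class II from the surface, was at 1.04 and 0.62. These were 3 of the 5 genes of the accessory list that had at least 5 CPM, against 3.52% of all genes. The other two, cathepsin S (Ctss; 0.57 and 0.76) and legumain (Lgmn; 0.34 and 0.52), are proteases that all macrophages carry, and they stayed under the limit in at least 1 library.

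The scarcer genes of the pathway were below the minimum level and are given as values. Ciita had 24.7 CPM in members and 5.17 CPM elsewhere in AEG-1ΔMAC and 8.83 against 2.52 CPM in AEG-1fl/fl, from 109 and 42 member UMIs. The log2 ratios were 2.26 and 1.81 for Ciita, 1.97 and 1.43 for H2-DMb2, 3.13 and 1.47 for H2-Oa, and 2.0 and 1.32 for H2-Ob. Cd83, which marks mature dendritic cells and stabilises surface MHC class II, was at 1.5 and 2.15 on 14 and 25 UMIs. Each of these 5 genes had a higher CPM in members than elsewhere in both libraries. The whole accessory list had 438 against 259 CPM in AEG-1ΔMAC and 397 against 239 CPM in AEG-1fl/fl, log2 ratios of 0.76 (0.68 to 0.83) and 0.73 (0.66 to 0.80), with a mean of 0.74 ± 0.02 (SD over the 2 libraries). This SD spans 2 genotypes with 1 mouse each, so it is no measure of precision.

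Of the regulators with at least 5 CPM, 2 of 8 passed the limit. Irf8, a transcription factor of dendritic cells and B cells, had 52.3 against 11.8 CPM (log2 ratio 2.15) and 21.4 against 10.2 CPM (1.07). Spi1, the myeloid factor PU.1, was at 0.99 and 0.59. The subunits of the RFX and NF-Y complexes, which bind these promoters in all cells, did not pass the limit: Rfxap was at 0.05 and -0.20, Rfxank at 0.23 and 0.29, Nfyb at -0.07 and -0.10, and Rfx5 at 0.53 and -0.02. Genes of MHC class I, which presents peptides from inside the cell, differed little, with log2 ratios of 0.15 and 0.14 for 13 genes. Psmb9, a subunit of the immunoproteasome, was the 1 gene of that list past the limit, at 0.81 and 0.80. Beta-2 microglobulin (B2m) was at 0.06 and 0.13. Among the costimulatory genes, Cd86, a ligand of CD28, had 12.4 against 5.85 CPM (1.09) and 13.2 against 6.8 CPM (0.96).

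Markers of several MHC class II-bearing cells were higher in members. Of 15 markers of conventional dendritic cells, 4 had at least 5 CPM, and 1 of them, Clec9a, a receptor for dead cells on cross-presenting dendritic cells, passed the limit. Clec9a had 19.2 against 6.17 CPM in AEG-1ΔMAC (log2 ratio 1.64) and 12.6 against 5.46 CPM in AEG-1fl/fl (1.21). Xcr1, the receptor that draws these cells to XCL1, had 7.47 against 0.707 CPM (33 member UMIs) and 3.57 against 0.219 CPM (17 member UMIs). It was seen in 12.6% of members and 1.51% of the remaining spots of AEG-1ΔMAC, and in 5.51% and 0.437% of those of AEG-1fl/fl. After thinning, the shares were 7.18% against 0.525% and 2.50% against 0.182%. Cd209a, a lectin of the other dendritic cell branch, was at 3.11 and 2.86, and the integrin Itgax at 3.10 and 2.76.

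The sum over the dendritic cell list was less informative than its genes. It was 211 against 153 CPM in AEG-1ΔMAC and 178 against 140 CPM in AEG-1fl/fl, log2 ratios of 0.46 and 0.35, and Dpp4 gave 450 of its 930 and 496 of its 846 member UMIs. Dpp4, a peptidase found on many liver cells, was at -0.21 and 0.05. Over genes with at least 20 UMIs in the library, the median log2 ratio was 2.63 (14 genes) in AEG-1ΔMAC versus 1.38 (12 genes) in AEG-1fl/fl.

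T cell genes were scarce and none had 5 CPM in each library. Summed, the T cell list had 79.0 against 26.9 CPM in AEG-1ΔMAC (349 member UMIs, log2 ratio 1.56, 1.38 to 1.73) and 30.3 against 15.5 CPM in AEG-1fl/fl (144 member UMIs, 0.96, 0.69 to 1.22). The T cell receptor chain Trbc2 was at 1.75 and 0.91 on 55 and 17 member UMIs. The CD3 chain Cd3e was at 1.77 and 0.86 on 42 and 14 member UMIs. In AEG-1ΔMAC, Trbc2 was seen in 20.6% of members against 7.32% of the remaining spots, and Cd3e in 14.5% against 5.30%. In AEG-1fl/fl these shares were 5.91% against 3.81% and 5.51% against 3.06%, with overlapping intervals. Cd4, the coreceptor for MHC class II, had 31 UMIs in AEG-1ΔMAC members (2.71) and 6 UMIs in AEG-1fl/fl members (0.89). The B cell list was at 1.12 (0.92 to 1.31) and 0.43 (0.26 to 0.59). Its defining genes Cd79a and Cd79b were at 0.51 and 1.13 in AEG-1ΔMAC but at 0.11 and 0.04 in AEG-1fl/fl. Cd79b was seen in 10.3% of members against 5.71% of the remaining spots in AEG-1ΔMAC, and in 13.0% against 12.4% in AEG-1fl/fl. Thinned, these shares were 6.22% against 2.52% and 7.5% against 6.24%.

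Kupffer cell genes were higher in members by less. The 12 genes summed to 1433 against 1128 CPM in AEG-1ΔMAC and 1455 against 1032 CPM in AEG-1fl/fl, log2 ratios of 0.35 (0.31 to 0.38) and 0.50 (0.46 to 0.53). Of the 12 genes, 0 passed the limit in both libraries, a count near the 3.52% of all genes that did. Clec4f, the lectin that defines mouse Kupffer cells, had 232 against 194 CPM and 258 against 184 CPM. It was seen in 94.9% of members and 93.6% of the remaining spots of AEG-1ΔMAC, and in 93.3% and 91.9% of those of AEG-1fl/fl. Kupffer cell RNA was therefore present in nearly all spots. Of the genes of monocyte-derived macrophages, Lgals3 (1.17 and 0.84) and Cd68 (0.60 and 0.72) passed the limit. The chemokine receptor Ccr2, which brings monocytes into tissue, had 17.0 against 2.63 CPM and 9.25 against 2.13 CPM.

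RNA shared by all leukocytes followed the same side, and 8 of 10 tested genes passed the limit. Coro1a was at 1.38 and 1.33, Cd52 at 1.55 and 1.19, and the common leukocyte antigen Ptprc at 1.47 and 0.71. Lists of non-immune portal genes had higher ratios than the leukocyte list, which was at 0.99 and 0.73. All 8 tested genes of the portal fibroblast and matrix list passed, and the list had 747 against 131 CPM in AEG-1ΔMAC (log2 ratio 2.51) and 496 against 149 CPM in AEG-1fl/fl (1.73). The cholangiocyte list had 488 against 160 CPM (1.61) and 448 against 159 CPM (1.5), and 1 of its 4 tested genes passed. Spp1 gave 1300 of the 2154 and 1229 of the 2131 member UMIs of this list, so its sum rests mostly on that gene. Its scarce markers Krt19, Epcam and Cldn7 were at 3.11 and 4.35, 2.81 and 2.75, and 2.49 and 3.10. Smooth muscle genes were at 1.93 and 1.42. The sinusoidal endothelium list was at -0.01 and -0.04 and the hepatocyte list at -0.02 and -0.05.

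Members lay toward the portal side of the lobule, most of all those in portal spots. Spots were divided within each library into 3 equal parts along an index of zone 1 (periportal) and zone 3 (pericentral) hepatocyte genes. The zone 1 part held 102 of 214 AEG-1ΔMAC members (47.7%, exact binomial 95% interval 40.8 to 54.6) versus 144 of 254 AEG-1fl/fl members (56.7%, 50.4 to 62.9). The zone 3 part held 47 (22.0%, 16.6 to 28.1) and 35 (13.8%, 9.79 to 18.6). Of the members outside the portal spots defined below, the zone 1 part held 38 of 120 (31.7%) in AEG-1ΔMAC, near an even division, and 77 of 154 (50%) in AEG-1fl/fl. Pericentral landmarks that are not in the index, such as Rgn and Gulo, were lower in members, with list log2 ratios of -0.38 and -0.65. The periportal landmarks were at 0.25 and 0.44. Positions of spots on the sections were not used here.

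How RNA changed along the score was then followed through 10 groups of equal size (deciles), from the lowest score to the members. The accessory list climbed through the deciles, from 147 to 438 CPM in AEG-1ΔMAC and from 179 to 397 CPM in AEG-1fl/fl. Kupffer cell RNA did so too, from 642 to 1533 CPM in the decile next to the members and 1433 CPM in members of AEG-1ΔMAC, and from 728 to 1455 CPM in AEG-1fl/fl. The portal lists took another course. Matrix RNA lay between 74.9 and 213 CPM in the other AEG-1ΔMAC deciles and at 747 CPM in members, and between 118 and 200 CPM and at 496 CPM in AEG-1fl/fl. Cholangiocyte RNA lay between 132 and 192 CPM and at 488 CPM, and between 133 and 185 CPM and at 448 CPM. T cell RNA in AEG-1ΔMAC lay between 21.4 and 32.6 CPM and at 79.0 CPM in members. In AEG-1fl/fl it lay between 12.9 and 21.7 CPM and at 30.3 CPM. In the plot by decile, portal RNA and AEG-1ΔMAC T cell RNA rose most at the members, whereas Kupffer cell RNA climbed gradually. Each decile pools its spots, so the plot does not place the rise of portal and T cell RNA at the limit of the members.

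**Figure D3:**
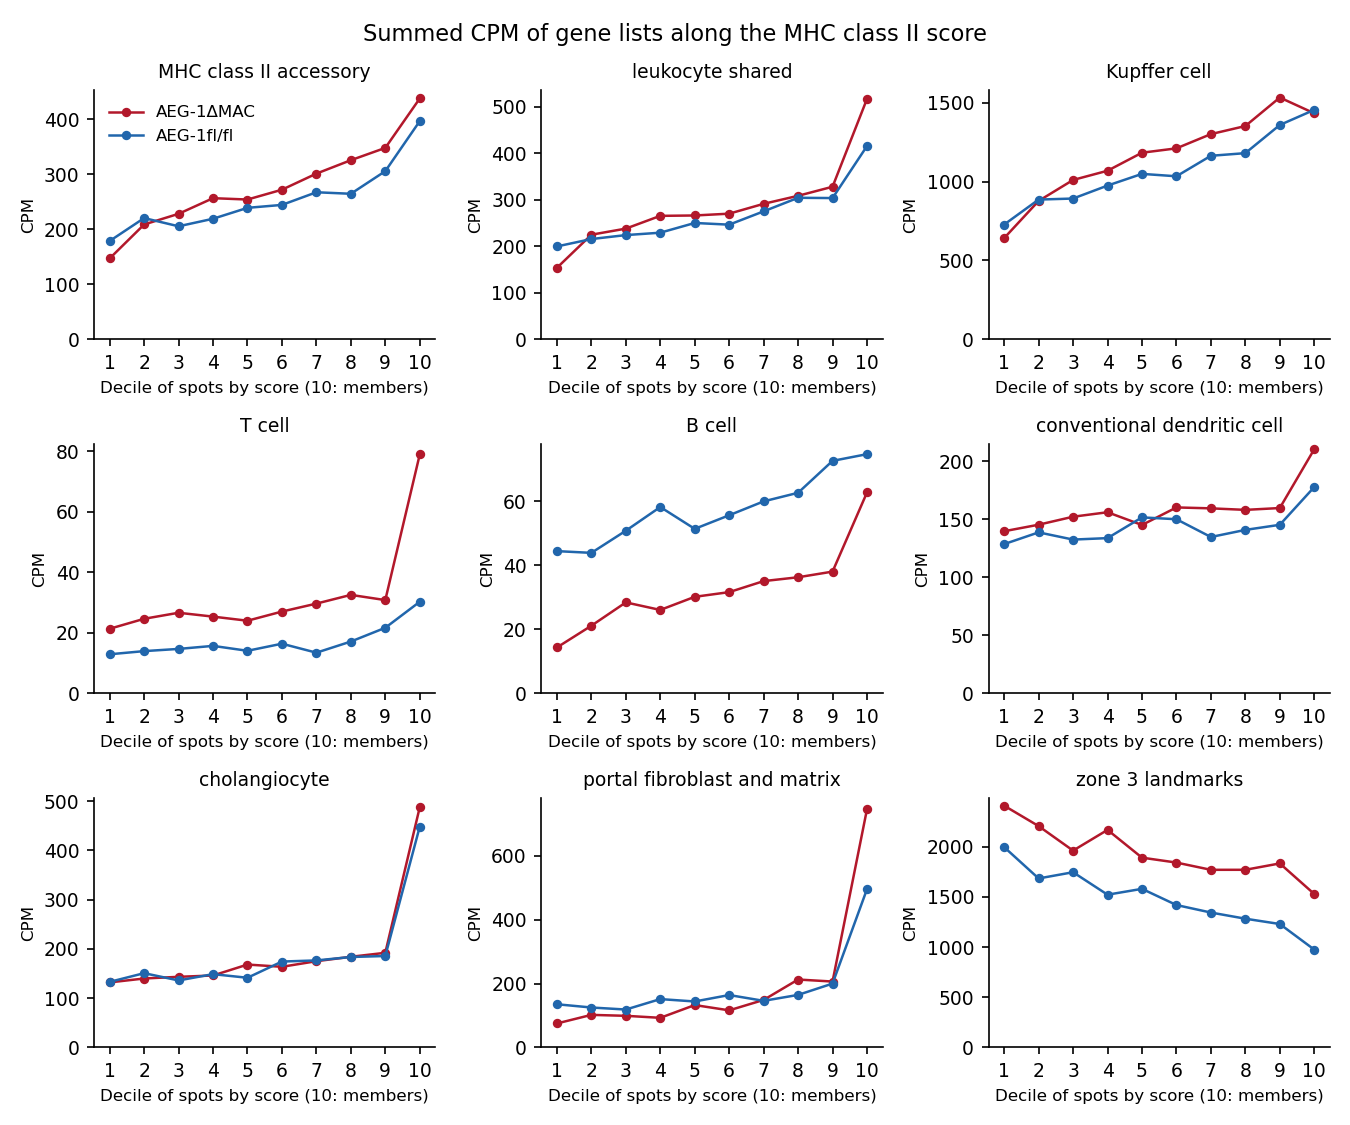
Summed CPM of 9 gene lists in deciles of the kept spots ranked by score, where 10 is the members, for both libraries. Accessory and Kupffer cell RNA climb along the score, matrix, cholangiocyte and AEG-1ΔMAC T cell RNA rise most at the members, and zone 3 landmarks fall, from 2410.3 to 1529 CPM in AEG-1ΔMAC and from 1997 to 975 CPM in AEG-1fl/fl.

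Overlap with other spot sets, each the top 10% of its library by another list, was highest for portal genes. Of AEG-1ΔMAC members, 94 (43.9%, 95% interval 37.2 to 50.9) were also among the spots richest in bile duct and vessel wall genes, and so were 100 of the AEG-1fl/fl members (39.4%, 33.3 to 45.7). All sets of a library have the same size, so each share is also the share of the other set. Spots richest in Kupffer cell genes held 55 (25.7%) and 74 (29.1%) of the members. Spots richest in interferon response genes held 45 (21.0%) and 51 (20.1%), and those richest in sinusoidal endothelium genes held 18 (8.41%) and 24 (9.45%).

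The members were therefore described in 2 classes, a division made after these values were seen. Portal members were the 94 and 100 spots that also lay in the top 10% for 32 bile duct, matrix and smooth muscle genes. The other members numbered 120 and 154. The median score was 1940 CPM in portal members and 1449 in the others of AEG-1ΔMAC, and 1053 and 789 in AEG-1fl/fl. The 5 highest scores of AEG-1ΔMAC, from 9379 to 15387, all belonged to portal members, and so did 4 of the 5 highest in AEG-1fl/fl. Each class was set against remaining spots of the same kind, portal or not.

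Portal members had more T cell, matrix and bile duct RNA than other portal spots in both libraries, and nearly the same Kupffer cell RNA. Naaa had 83.1 CPM in portal members and 19.3 CPM in other portal spots of AEG-1ΔMAC, and 40.9 against 9.63 CPM in AEG-1fl/fl. Xcr1 had 14.6 against 1.18 CPM and 5.97 against 0.688 CPM, and 30 of its 33 and 13 of its 17 member UMIs lay in portal members. Clec9a was at log2 ratios of 2.20 (1.40 to 3.06) and 0.65 (-0.11 to 1.41), and Ciita at 2.0 and 1.83. The dendritic cell list was at 0.59 (0.41 to 0.78) and 0.20 (0.01 to 0.39). The T cell list had 96.2 against 47.6 CPM and 39.5 against 18.6 CPM. The B cell list was at 1.17 (0.75 to 1.60) in AEG-1ΔMAC but at 0.11 (-0.22 to 0.44) in AEG-1fl/fl, and the NK and cytotoxic list at 1.23 (0.78 to 1.70) and 0.56 (-0.03 to 1.15). The Kupffer cell list had 985 against 943 CPM, a log2 ratio of 0.06 (-0.02 to 0.15), and 1246 against 1128.5 CPM, 0.14 (0.07 to 0.22). Bile duct RNA was itself higher in portal members than in other portal spots, with 860 against 433 CPM and 802 against 408 CPM for the cholangiocyte list. The matrix list was at 1.13 and 0.79, and smooth muscle genes at 0.84 and 1.09. Cell types of the portal tract that moved together here were not separated.

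Members outside portal spots were richer in Kupffer cell RNA than the remaining spots outside portal spots. The Kupffer cell list had 1824 against 1139.8 CPM in AEG-1ΔMAC (log2 ratio 0.68, 0.63 to 0.72) and 1631 against 1025 CPM in AEG-1fl/fl (0.67, 0.62 to 0.72). Its genes varied: in AEG-1ΔMAC and AEG-1fl/fl, Clec4f was at 0.69 and 0.73, the scavenger protein Cd5l at 0.75 and 0.65, the complement subunit C1qa at 0.76 and 0.74, Vsig4 at 0.71 and 0.60, Marco at 0.70 and 1.01, and the iron exporter Slc40a1 at 0.23 and 0.40. T and B cell RNA was higher in these members too, with log2 ratios of 1.33 and 0.55 for the T cell list and 1.06 and 0.57 for the B cell list. In AEG-1ΔMAC, the 5 richest in Cxcl9 held 15, 8, 11, 5 and 8 of the 151 T cell list UMIs. Clec9a was at 0.60 (-0.10 to 1.24) and 0.97 (0.32 to 1.56). Xcr1 was represented by 3 and 4 UMIs in all members outside portal spots, with log2 ratios of 0.91 (-1.46 to 2.62) and 3.05 (0.87 to 4.95). H2-DMa was at 1.14 and 1.29 and the accessory list at 0.68 and 0.79, so pathway RNA was higher in both classes. Without portal spots, 109 genes rather than 297 were at least 1.5-fold higher in both libraries. The cholangiocyte list was then at 0.20 (0.05 to 0.35) and 0.07 (-0.08 to 0.22). Its genes helped to define the portal spots, so this fall follows from leaving them out.

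**Figure D4:**
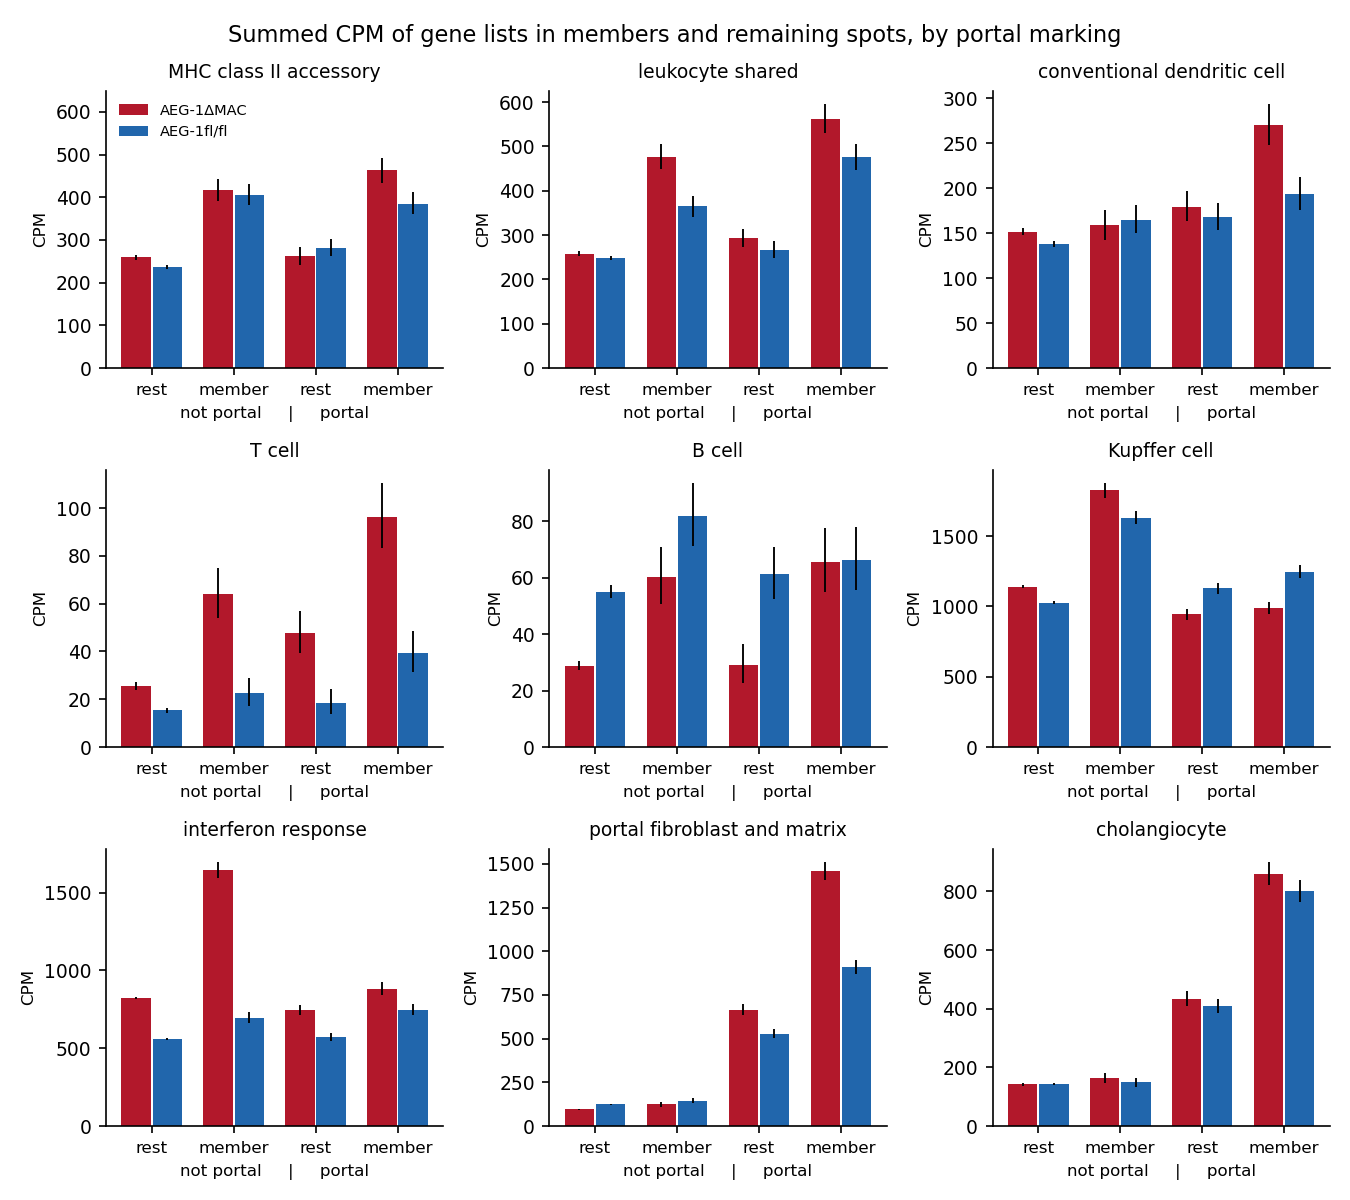
Summed CPM of 9 gene lists in remaining spots and members, outside and inside portal spots, with exact 95% counting intervals. Kupffer cell RNA is highest in members outside portal spots (1824 and 1631 CPM), matrix and cholangiocyte RNA in portal members, and interferon response RNA in AEG-1ΔMAC members outside portal spots (1645 CPM). Matrix and cholangiocyte genes helped to define the portal spots. In AEG-1ΔMAC, 5 members hold 30.7% of the interferon response UMIs of all members. In AEG-1fl/fl, interferon response RNA is at 747 CPM in portal members and 697 CPM in the others.

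A few spots carried most of the Cxcl9 RNA of the members and a smaller share of the whole interferon response list. In AEG-1ΔMAC they also carried most member Cxcl10 and Gbp2 RNA, as 44 of 114 and 91 of 221 UMIs remained without them. Cxcl9, a chemokine that interferon gamma induces and that draws T cells, had 130 CPM in members and 23.6 CPM elsewhere in AEG-1ΔMAC (log2 ratio 2.47), and 33.4 against 8.78 CPM in AEG-1fl/fl (1.93). The guanylate-binding protein Gbp2 was at 2.09 and 1.48, and the chemokine Cxcl10 at 1.62 and 1.01. In all, 6 of the 21 tested genes of the interferon response list passed the limit. The 5 members richest in Cxcl9 held 69.6% of all member Cxcl9 UMIs in AEG-1ΔMAC versus 56.0% in AEG-1fl/fl. In AEG-1ΔMAC these spots had 141, 99, 95, 40 and 25 Cxcl9 UMIs and 41, 26, 40, 8 and 15 Gbp2 UMIs, and all 5 lay outside portal spots. In AEG-1fl/fl they had 57, 16, 8, 5 and 3 Cxcl9 UMIs, and the foremost had 21 Gbp2 UMIs. Those with 16 and 3 Cxcl9 UMIs were portal spots. Scores of the 5 spots ran from 1393 to 6214 CPM in AEG-1ΔMAC and from 680 to 5558 CPM in AEG-1fl/fl. For the whole interferon response list, the 5 richest members held 30.7% and 13.7% of the member UMIs.

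Without these 5 spots of each library, chosen after their values were seen, the interferon response list fell from 0.66 to 0.17 (0.12 to 0.21) in AEG-1ΔMAC and from 0.36 to 0.25 (0.20 to 0.31) in AEG-1fl/fl. Cxcl9 is a gene of this list, and no spot was taken out of the remaining spots. A fall was thus fixed in advance, and these values only show how much RNA the spots held. Cxcl9 was then at 0.79 and 0.77 and Gbp2 at 0.85 and 0.92, while the intervals of Cxcl10 included 0. Oasl2, an interferon-induced antiviral gene, kept nearly the same value, at 0.91 and 0.84 with the spots and 0.85 and 0.81 without them. The T cell list summed to 47 UMIs in the AEG-1ΔMAC spots and 7 in the AEG-1fl/fl spots. Saa3, an acute phase protein of macrophages and fibroblasts, was at 1.36 and 1.48 in all members and at 1.0 and 0.86 without these spots.

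Between the genotypes, most genes differed in members as they did in the remaining spots. Among 4671 genes whose mean reached 20 CPM, 71 (1.52%) exceeded a 2-fold difference upward in AEG-1ΔMAC members and 22 (0.471%) downward. In the remaining spots 54 (1.16%) were higher and 25 (0.535%) lower, and 49 of the higher and 16 of the lower genes were common to members and remaining spots. For all genes the median log2 ratio was 0.18 in members and 0.14 elsewhere, and 98.0% of the genes had a ratio in members within 0.5 of that elsewhere. Of the genes called in members, 76.3% were higher in AEG-1ΔMAC. This share was 63.5% with TMM factors (54 higher and 31 lower) and 65.1% when the top 50 genes were left out of the total (56 higher and 30 lower), settings that shift the median by -0.19 and -0.16. With no second mouse per genotype, none of these differences was tested.

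The foremost genotype ratios in members belonged to genes that differed in the same direction outside them, chosen after their values were seen. Gadd45g, a stress-induced gene, had 201 CPM in AEG-1ΔMAC members and 10.5 CPM in AEG-1fl/fl members (log2 ratio 4.25, against 4.47 elsewhere). Cish, an inhibitor of cytokine receptor signalling, was at 4.04 (4.63 elsewhere), Alas1, the rate-limiting enzyme of heme synthesis, at 4.03 (3.86) and Phlda1 at 3.19 (3.09). Depp1 was at -2.38 (-2.15). The same side was thus seen over the whole section for each of these genes.

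The genes whose genotype ratio was highest in members relative to the remaining spots were named by rule. Hba-a2 and Hbb-bs, hemoglobin chains of red cells, had 812 against 271 CPM and 1696 against 608 CPM in AEG-1ΔMAC and AEG-1fl/fl members. Their log2 ratios were 1.58 and 1.48 in members and -0.50 and -0.51 elsewhere. Hbb-bt was at 0.14 and -1.48. Hbb-bs and Hbb-bt are nearly identical copies, so the division between them is uncertain. In AEG-1ΔMAC, 5 members held 42.5% of the Hba-a2 and 42.0% of the Hbb-bs UMIs. Without portal spots the ratios of Hba-a2, Hbb-bs and Hbb-bt in members were below those elsewhere by 0.44, 0.32 and 0.40. Tff3, a trefoil peptide of mucus, had 20.8 against 349 CPM in members (-4.07) and 8.41 against 355 CPM elsewhere (-5.40).

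For collagen genes the genotype ratio lay above 0 in members and below 0 in the remaining spots. None of the 3 tested genes of the matrix list passed the 2-fold limit, against 1.52% of all genes upward and 0.471% downward. Col3a1 had 222 against 181 CPM in members (log2 ratio 0.30, 0.16 to 0.43) and 45.0 against 71.2 CPM elsewhere (-0.66, -0.74 to -0.58). Col1a1 had 86.5 against 64.6 CPM in members (0.42) and 11.7 against 16.7 CPM elsewhere (-0.51). Igfbp3, a carrier of insulin-like growth factors, was at 0.46 and -0.41, and Serpina7, the thyroxine-binding globulin, at -0.55 and -1.53. The matrix list was at 0.59 (0.51 to 0.67) in members, or 0.40 with TMM factors, and -0.19 (-0.24 to -0.14) elsewhere. Within each class of spots, matrix RNA of members and remaining spots went the same way. In portal spots the matrix list had 1459 against 911 CPM in members and 666 against 528 CPM in the remaining spots, and outside them it had 125 against 145 CPM and 95.4 against 124 CPM.

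At the other end of the rule, the genotype ratio was lower in members than elsewhere for Myc (2.15 and 3.21), the hepatocyte factor Onecut1 (2.93 and 3.69), hepcidin (Hamp; 0.48 and 1.18), Adam23 (-0.90 and -0.18), Eppk1 (-0.36 and 0.35), Clec2h (-0.18 and 0.50), Rgs5 (-1.04 and -0.38) and Marco (-1.94 and -1.29). Myc had 36.4 CPM in AEG-1ΔMAC versus 8.20 CPM in AEG-1fl/fl members, and 38.0 and 4.10 CPM elsewhere. Marco, a scavenger receptor of Kupffer cells, had 15.4 against 59.1 CPM in members and 13.7 against 33.7 CPM elsewhere. Rgs5, a marker of pericytes, had 34.9 against 71.5 CPM in members, and 26.8% of its AEG-1fl/fl member UMIs lay in 5 spots.

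**Figure D5:**
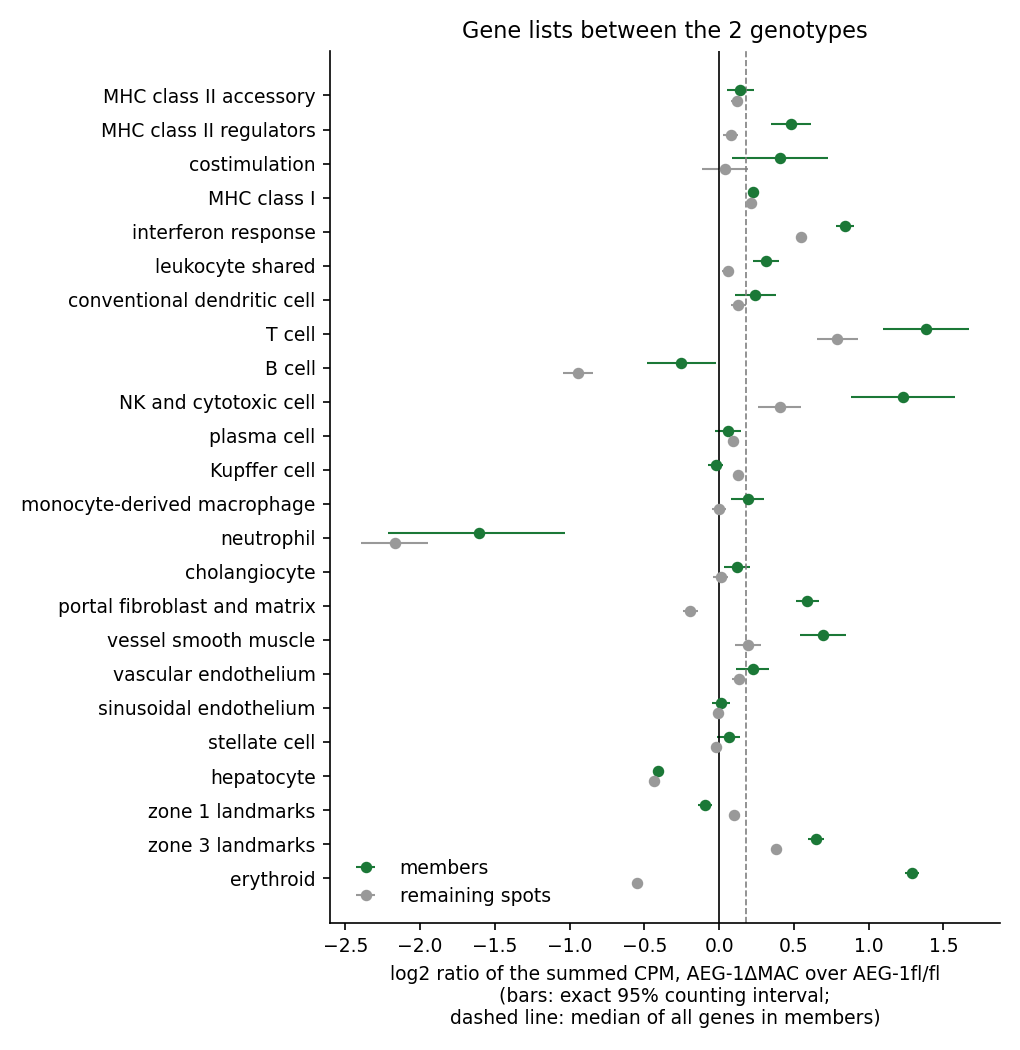
Log2 ratio of the summed CPM of each gene list, AEG-1ΔMAC over AEG-1fl/fl, in members and in the remaining spots, with exact 95% counting intervals. The dashed line is the median of all genes in members (0.18). T cell, NK cell, matrix, smooth muscle and erythroid lists lie farther right in members than in the remaining spots, whereas MHC class II accessory genes lie near the dashed line in both.

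Among the gene lists, the zone 3 genes of the index had the highest genotype ratio in members. They had 6658 CPM in AEG-1ΔMAC versus 2086 CPM in AEG-1fl/fl members, a log2 ratio of 1.67 against 1.26 elsewhere. Zone 3 landmarks that are not in the index were at 0.65 in members and 0.38 elsewhere. T cell and NK cell RNA was also higher in AEG-1ΔMAC members. The T cell list had 79.0 against 30.3 CPM in members (log2 ratio 1.38, 1.10 to 1.67) and 26.9 against 15.5 CPM elsewhere (0.79, 0.65 to 0.93). NK and cytotoxic cell genes, mostly the chemokine Ccl5, had 50.7 against 21.7 CPM in members (1.23, 0.88 to 1.58), and were at 0.41 elsewhere. B cell RNA went to the other side, with 62.7 against 74.7 CPM in members (-0.25, -0.48 to -0.02) and 28.9 against 55.5 CPM elsewhere (-0.94). The interferon response list had 1289.5 against 719.6 CPM in members (0.84) and was at 0.55 elsewhere, and its ratio in members was 0.46 without the 5 spots richest in Cxcl9. With 1 score limit for both libraries, which admits fewer AEG-1fl/fl spots, the ratio in members was 0.29 for the T cell list, 0.18 for the interferon list and -0.21 for the NK and cytotoxic list.

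Outside the score genes, the MHC class II pathway differed unevenly between genotypes in members. The accessory list had 438 CPM in AEG-1ΔMAC versus 397 CPM in AEG-1fl/fl members, a log2 ratio of 0.14 (0.05 to 0.23) against 0.12 elsewhere and 0.18 for the median gene. With TMM factors it was -0.047. Its genes did not move together, and the sum rests mostly on Lgmn (167 against 204 CPM) and Ctss (121 against 105 CPM). H2-DMa had 51.2 against 26.3 CPM (0.96 in members, 0.71 elsewhere), H2-DMb1 27.4 against 16.0 CPM (0.78 and 0.71) and Ciita 24.7 against 8.83 CPM (1.48 and 1.03). The regulators list was at 0.48 (0.35 to 0.61) in members and 0.077 elsewhere. Kupffer cell RNA was nearly equal in the members of both genotypes, with 1433 and 1455 CPM (-0.02, -0.07 to 0.03), and at 0.13 elsewhere. The dendritic cell list was at 0.24 (0.11 to 0.38) in members and 0.13 elsewhere.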

How the data were processed

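Formalin-fixed liver sections were assayed with the Visium probe-based kit. The authors made the deposited files with Space Ranger 2.0.1 and mm10 (Seurat 4.3.0 is also named in the submitters' processing notes), and each value is an unnormalised UMI count for 1 gene in 1 spot. Groups came from the genotype labels. Probes differ in efficiency, so a count compares spots or libraries for the same gene.

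Spots with at most 50000 UMIs and 100 to 7000 genes were kept (2140 of 2149 and 2540 of 2543), and ties in score were taken in file order. UMIs were summed over spots and divided by their total to give CPM. Ratios have exact conditional binomial (Clopper-Pearson) 95% intervals, which cover counting error only. With 1 library per genotype no test was run. At 5 CPM a gene has about 22.1 and 23.8 UMIs in members. Named genes were the 12 highest and 8 lowest by the weaker library, the 8 highest and 8 lowest genotype ratios of members minus remaining spots, the genes of 34 lists (321 genes), Mtdh and Lyz2. The members and lists were chosen with earlier results of these data known. Alternatives changed the threshold, score, scaling, minimum and ratio. A list ratio uses summed CPM. Python 3.11.15 (numpy 2.4.6, scipy 1.17.1, pandas 2.3.3, matplotlib 3.10.9) was used, with R 4.3.3 and edgeR 4.0.16 for TMM factors only. The scripts were tested on simulated data. Promoters were matched by symbol, with an entry for 7 of 8 genes sought, and all 8 windows equalled the GRCm38 genome. Gene coordinates are from the GENCODE annotation of GRCm38, matched by Ensembl ID.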

Additional observations from a re-analysis of the deposited data

Results flagged for a closer look

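Some results lay on opposite sides of 0 in the 2 libraries, and with 1 library per genotype the difference was not tested. The erythroid list, members over remaining spots, was at a log2 ratio of 1.69 (1.66 to 1.72) in AEG-1ΔMAC versus -0.15 (-0.19 to -0.11) in AEG-1fl/fl. In AEG-1ΔMAC, 5 members held 42.0% of the Hbb-bs UMIs of the members, and 6876 of these 7492 UMIs lay in portal members. Outside portal spots the erythroid list was at -0.40 in AEG-1ΔMAC versus -0.10 in AEG-1fl/fl.

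Of the 8437 genes with at least 5 CPM, 3 were at least 1.5-fold higher in members of AEG-1ΔMAC and at least 1.5-fold lower in members of AEG-1fl/fl. Slc29a3, a nucleoside transporter of lysosomes, was at 1.15 (0.65 to 1.63) and -0.87 (-1.77 to -0.101) on 45 and 14 member UMIs. Gpr39, a zinc-sensing receptor, was at 0.74 (0.25 to 1.196) and -0.73 (-1.46 to -0.079) on 46 and 20 member UMIs. Plpp6, a lipid phosphatase, was at 0.70 (0.26 to 1.11) and -0.61 (-1.28 to -0.017) on 56 and 24 member UMIs. These 3 genes were picked by their values from all genes tested, and the intervals cover counting error only. Whether they differ between genotypes was not tested.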

How the results depend on the processing

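Each result was recomputed under alternatives, of which leaving out portal spots, the 5 highest scores, the 5 members richest in Cxcl9 and members under 10 score UMIs were chosen after seeing the data. The B cell (0.63 to 0.83) and T cell (0.93 to 1.63) lists, members over remaining spots, moved by less than 1 SD of the 2 libraries under all 14. That SD was wide, at 0.49 and 0.42, because the libraries differed, and it was 0.02 for the accessory list. It is therefore no measure of stability. With the top 5% as members, enriched genes in both libraries numbered 549 and depleted genes 8, and the accessory list was at 0.92, cholangiocytes at 2.01, dendritic cells at 0.64, score genes measured in spots chosen by the other 3 at 2.29 and the accessory genotype ratio at 0.24. With the top 20% these were 165, 0, 0.63, 1.07, 0.25 and 1.45. With 1 threshold the accessory list was at 0.78 and its genotype ratio at -0.22, cholangiocytes at 1.76, dendritic cells at 0.55, held-out genes at 2.12, genes lower in AEG-1ΔMAC at 42 and the NK genotype ratio at -0.21. A minimum of 1 CPM gave 889 genes enriched and 11 depleted in members, and 492 higher and 223 lower in AEG-1ΔMAC. A minimum of 50 CPM gave 9, 0, 40 and 11, and a ratio of 2 (members) or 1.5 (genotype) gave 79, 0, 338 and 70. Without Cd74 in the score the accessory list was at 0.66 and its genotype ratio at 0.24, cholangiocytes at 1.36, held-out genes at 1.72, and 0 genes were lower. The accessory list was at 0.71 with Cd74 alone or within deciles of UMIs, at 0.68 with remaining spots weighted to the zones and depth of members (cholangiocytes 1.45, 1 gene lower), and at 0.70 without the 5 highest scores (dendritic cells 0.32). When the top 50 genes were left out of the total it was at 0.72 and its genotype ratio at -0.022, and with TMM factors that ratio was -0.047. Without portal spots, 109 genes were higher and 8 lower, Kupffer cells were at 0.67, cholangiocytes at 0.14, dendritic cells at 0.16 and the accessory genotype ratio at 0.034, and the signs of members minus remaining spots turned for Hba-a2 (-0.44), Hbb-bs (-0.32) and Hbb-bt (-0.40) and of the erythroid genotype ratio (-1.19). Cholangiocyte genes helped to define the portal spots, so the fall of that list follows from the choice. The causes were not tested. No paired analysis was possible because each genotype had 1 library, and for the same reason no replicate could be left out. A gene at the 5 CPM minimum has about 22.1 UMIs in AEG-1ΔMAC members, and scarcer genes have wide intervals.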

Other observations

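Members that led the score of each library were looked at one by one as values. The 5 highest in AEG-1ΔMAC had 21, 28, 8, 15 and 23 UMIs of the dendritic cell list, 7, 8, 5, 2 and 9 of the T cell list and 0, 4, 3, 4 and 2 of the B cell list. The 5 highest in AEG-1fl/fl had 11, 9, 7, 7 and 8, then 2, 2, 0, 1 and 4, and 5, 3, 0, 1 and 4. The fourth of these was the AEG-1fl/fl spot with 57 Cxcl9 UMIs, and it lay outside portal spots. The shallowest members had 140 UMIs in AEG-1ΔMAC versus 985 UMIs in AEG-1fl/fl, and 3 and 2 members had fewer than 5 score UMIs.

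Neutrophil genes were scarce in members. The list had 33 UMIs (7.47 CPM) in AEG-1ΔMAC members and 108 UMIs (22.7 CPM) in AEG-1fl/fl members, and 4.83 and 21.7 CPM in the remaining spots. In AEG-1fl/fl, 1 member held 27 of the 108 UMIs and 5 members held 55.6%. Proliferation genes, such as Mki67 and Cdk1, had 20.1 against 8.16 CPM in members and elsewhere in AEG-1ΔMAC (log2 ratio 1.30, 0.95 to 1.64) and 40.6 against 32.3 CPM in AEG-1fl/fl (0.33, 0.10 to 0.55). The von Willebrand factor gene Vwf, of vessel endothelium, had 53.9 against 11.2 CPM in AEG-1ΔMAC and 13.5 against 9.63 CPM in AEG-1fl/fl.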
